A study of Phalaenopsis aphrodite with 54 samples.

Results

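The contigs described here gave a higher microarray signal in the V3 hybrid than in Phalaenopsis aphrodite in flowers, leaves and roots alike. They were selected on the 13 arrays that were hybridized with unamplified cDNA: a contig, which is a transcript sequence assembled from short reads, was kept when its mean log2 value in V3 exceeded that in P. aphrodite by at least 1.5 in each of the 3 tissues. The rule kept 76 of 43662 contigs, or 0.174%, after contigs discussed by name in the study were set aside. The choice depends on the processing: with normexp background correction and an offset of 50, 16 of the 76 were kept. The offset itself narrows log2 differences at low signal, and its part was not separated. Each contig was read by the probe with the highest mean over the amplified arrays. The files give contig numbers (PATC) without gene names, and no sequences or annotation were used here, so no function is given for any of the 76.

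Flowers, leaves and roots of V3 were set against those of P. aphrodite. V3 is labelled as a tetraploid Phalaenopsis hybrid, described in the study as the commercial hybrid Sogo Yukidian 'V3', and P. aphrodite, labelled as diploid, is a wild moth orchid species. Unamplified arrays held V3 flower (2 arrays), leaf (2) and root (2), and P. aphrodite flower (2), leaf (3) and root (2). Amplified cRNA was hybridized on 41 further arrays of 20 conditions: V3 small buds, large buds, flowers, flowers 1, 3, 8 and 15 days after pollination, sepal, petal, lip, pollinia, column and pedicel, and P. aphrodite leaf, root, stalk, young inflorescence, inflorescence, bud and flower, with 2 arrays each and 3 for leaf. The labels do not say how many plants each RNA came from. The study states that 2 sample collections supplied its floral organ arrays. P-values measure the spread between arrays of V3 petal, lip and sepal and P. aphrodite inflorescence, young inflorescence and bud. In the other 14 amplified conditions, whole flowers and pollinated flowers among them, the arrays were averaged as 1 replicate and gave no spread. The spread may be technical, and the number of arrays limits the precision.

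The probes were designed against P. aphrodite sequences. On such an array the signal of a probe follows both the amount of its transcript and how well the transcript pairs with the probe, and these cannot be told apart between genotypes. Tissue RNA also mixes cell types, so that a change in the share of a cell type and a change in RNA per cell cannot be told apart. A tetraploid hybrid carries several copies of each gene that can differ in sequence, and hybrid plants are widely known for transcripts that are read above or below the level of a parent species.

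Values are log2 intensities relative to the 75th percentile of each array, so that 0 is the 75th percentile and a difference of 1 is 2-fold. The 75th percentile intensity lay between 445 and 1049 on unamplified arrays and between 2330 and 8088 on amplified ones. Signals under 20 were set to 20, which places the lowest possible value between -5.71 and -4.48 on unamplified arrays and between -8.66 and -6.86 on amplified arrays. A probe at that floor on every array would give V3 minus P. aphrodite differences of -0.34 in flower, 0.07 in leaf and -0.66 in root. The scanner software marked between 71.2% and 82.7% of spots on an array as well above background. In the label check, the floral MADS box contig of PaSEP-3 lay at 0.94 in V3 flowers and 0.35 in P. aphrodite flowers, against values between -5.12 and -4.80 in leaves and roots of both plants. PaSEP-2 was less confined to flowers, at 0.37 in V3 leaves and 0.57 in P. aphrodite leaves against 2.58 and 2.83 in flowers. The ubiquitin control differed between genotypes by at most 0.21 in any tissue. The actin control differed by -0.43 in flower, -0.01 in leaf and -0.22 in root.

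Some amplified arrays stood apart from their labels or from related arrays with respect to these contigs. On the arrays labelled P. aphrodite inflorescence and young inflorescence, the 67 of the 76 contigs that could be tested in flowers had medians of -1.74 and -2.11, near the V3 conditions (-3.25 to -1.04), whereas the medians of the other P. aphrodite tissues lay between -4.84 and -3.54. The 84 testable contigs of the opposite group, which were at least 1.5 lower in V3 in all 3 tissues (91 contigs in all), showed the converse, with medians of -2.74 and -2.48 in the inflorescences, -3.68 to -2.03 in V3 and -0.76 to -0.28 in the other P. aphrodite tissues. All 4 inflorescence arrays lay above the 11 other amplified P. aphrodite arrays for 29 of 68 tested contigs, against 9.13% of all 34059 contigs tested. They lay below those 11 arrays for 50 of 84 contigs of the opposite group, against 5.29% of all contigs. The whole V3 flowers stood apart as well: both arrays exceeded all 12 arrays of the V3 floral organs for 34 of 67 contigs (13.3% of 31066 contigs), and by at least 1 for 16 of 67 (2.98%). All 4 probes for Odontoglossum ringspot virus were well above background on both amplified whole V3 flower arrays, and no other amplified V3 condition had any of them well above background on all its arrays. Counts that rest on these arrays are given below beside those from other V3 or P. aphrodite material, and the part of virus or of sample identity in the difference was not tested.

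**Figure D1:**
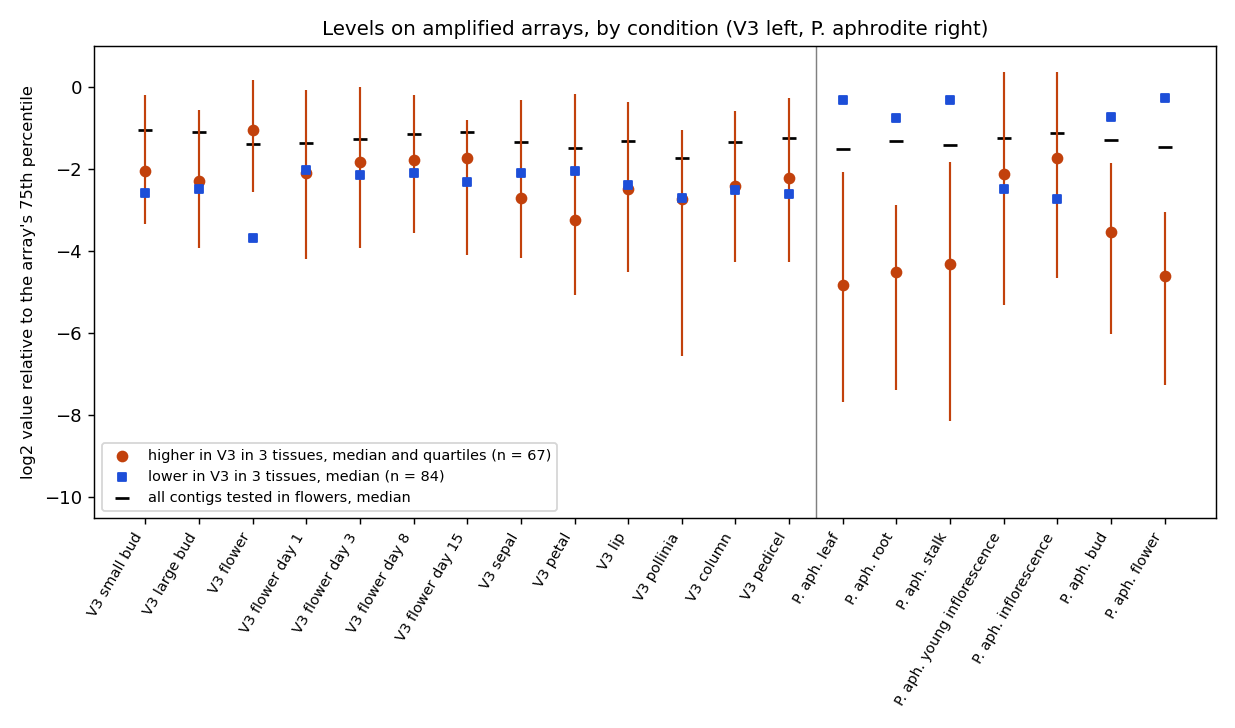
Log2 levels relative to the 75th percentile of each array (vertical axis) in the 20 amplified conditions (horizontal axis, V3 conditions left and P. aphrodite conditions right). Points and lines give the median and quartiles of the 67 contigs higher in V3, squares the median of the 84 contigs lower in V3, and dashes the median of all contigs tested in flowers. Whole V3 flowers show the highest point, at -1.04, and the inflorescences labelled P. aphrodite, at -1.74 and -2.11, sit among the V3 conditions.

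On the unamplified arrays that chose them, the 76 contigs had median V3 minus P. aphrodite differences of 2.23 in flower, 2.39 in leaf and 2.31 in root, and the ranges were 1.51 to 4.86, 1.51 to 4.64 and 1.52 to 6.22. Over all contigs the medians were -0.14, 0.05 and -0.08. Taken singly, the threshold was passed by 3.09% of contigs in flower, 1.58% in leaf and 1.53% in root. Among the 35 contigs that were well above background on all 13 unamplified arrays, the difference was largest in flower for 16, in leaf for 5 and in root for 14. Of all 76, 28 contigs reached at least 2 in all 3 tissues, 5 at least 3 and 1 at least 4. Every V3 array lay above every P. aphrodite array of the same tissue in all 3 tissues for all 76 contigs and for 5.72% of all contigs, which for these 76 follows from how they were chosen.

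All 76 contigs were well above background on all 6 unamplified V3 arrays, which the rule favours because it needs V3 to exceed P. aphrodite in every tissue. In P. aphrodite, 35 were well above background on all 7 unamplified arrays and 5 on none, while 12.2% of all contigs were on none. Tissue levels in V3 ranged from -3.002 to 4.31 in flower, from -3.53 to 6.51 in leaf and from -3.35 to 4.64 in root, and those in P. aphrodite from -4.53 to 2.38, from -5.11 to 4.39 and from -4.95 to 0.56. Within V3 the highest of the 3 tissues was flower for 31 contigs, leaf for 24 and root for 21. In 29 contigs the 3 V3 tissues lay within 1 of each other, and in 19 they spanned over 2.

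PATC173816 had the largest difference in the tissue where it differed least. Its values were 2.99 and 2.18 in V3 flowers against -2.04 and -2.39 in P. aphrodite flowers. They were 1.14 and 1.32 in V3 leaves against -3.21, -2.75 and -2.99 in P. aphrodite leaves, and 4.85 and 4.42 in V3 roots against -1.54 and -1.61 in P. aphrodite roots. The genotypes were 27.9-fold apart in flower, 18.5-fold in leaf and 74.3-fold in root, and the P. aphrodite probe was well above background on all 7 arrays.

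PATC141196 and PATC141945 followed each other closely. PATC141196 had values of -0.23 and 0.25 in V3 flowers, -1.56 and -1.48 in V3 leaves and -1.48 and -1.33 in V3 roots, and it was not well above background on any of the 7 P. aphrodite arrays, where its values lay at or near the floor. It was at least 22.1-fold higher in V3 flowers, at least 10.3-fold in V3 leaves and at least 11.45-fold in V3 roots, where the lowest signal counted as well above background on each P. aphrodite array sets the bound. PATC141945 was at least 27.5-fold, 10.4-fold and 10.8-fold higher in V3 flowers, leaves and roots.

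PATC202943 gave -0.0066 and -0.0046 in V3 flowers against -4.48 and -4.25 in P. aphrodite flowers, -0.79 and -0.65 in V3 leaves against -5.29, -5.01 and -5.02 in P. aphrodite leaves, and -1.24 and -0.52 in V3 roots against -4.38 and -4.34 in P. aphrodite roots. PATC127959 gave -1.05 and -1.39 in V3 flowers against -4.48 and -4.59, not well above background, in P. aphrodite flowers, and 0.50 and -0.10 in V3 roots against -4.46 and -4.20 in P. aphrodite roots. PATC156721 had its highest V3 values in leaf, at -0.03 and 0.15, against -2.36, -3.30 and -3.14 in P. aphrodite leaves. In each tissue the V3 arrays of these contigs lay together above the P. aphrodite arrays, without overlap.

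**Figure D2:**
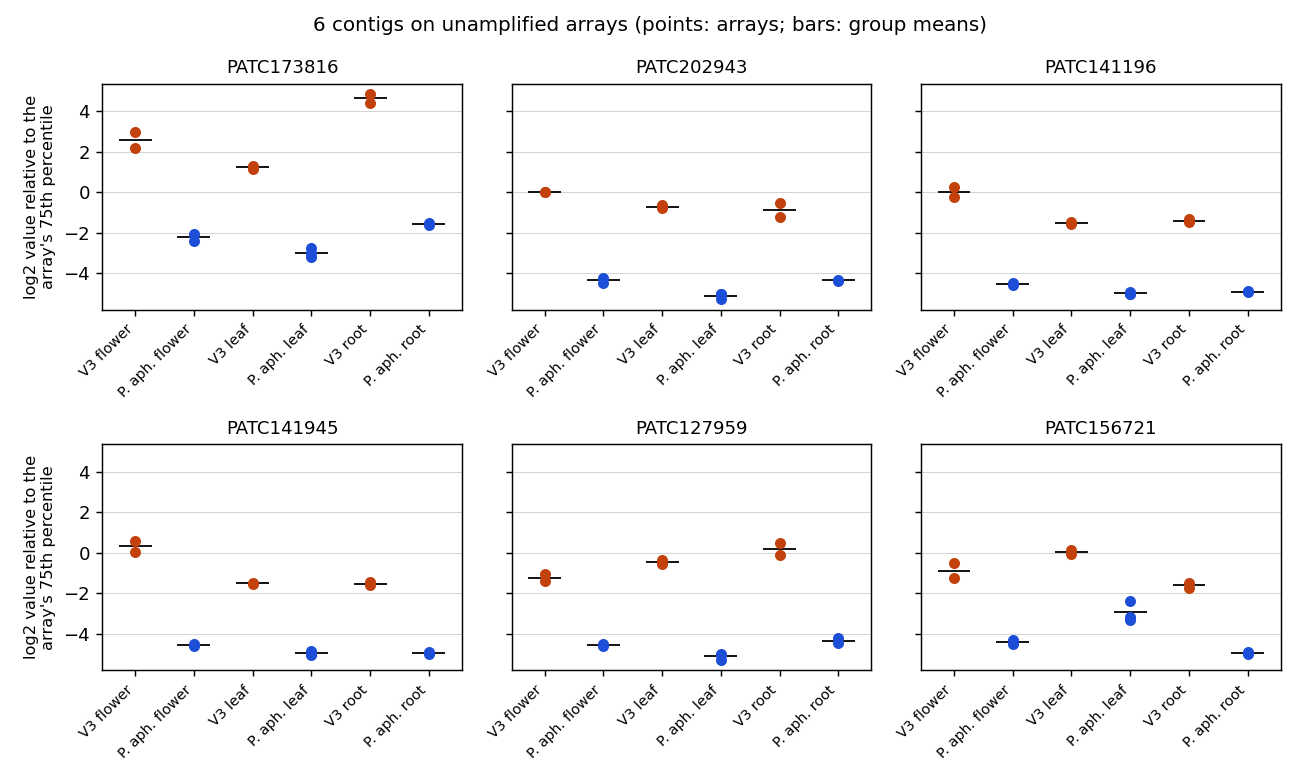
Log2 values relative to the 75th percentile of each array (vertical axis) for the 6 contigs with the largest smallest difference, on unamplified arrays of V3 and P. aphrodite flower, leaf and root (horizontal axis). Points are arrays and bars group means. The V3 points lie above the P. aphrodite points in every tissue, which is how the contigs were chosen, and PATC173816 has the highest values, 4.85 and 4.42 in V3 roots.

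The contigs with the highest mean V3 level were, besides PATC173816, PATC154971, PATC139248 and PATC140220. PATC154971 was a bright contig in both plants, with 6.45 and 6.57 in V3 leaves against 4.39, 4.45 and 4.34 in P. aphrodite leaves, and 4.25 and 4.38 in V3 flowers against 2.41 and 2.35 in P. aphrodite flowers. Its root values were 2.97 and 3.18 in V3 and 0.35 and 0.48 in P. aphrodite. PATC139248 was 3.44-fold, 4.52-fold and 3.55-fold higher in V3 flower, leaf and root, and PATC140220 4.92-fold, 6.17-fold and 3.85-fold higher. All 3 were well above background on all P. aphrodite arrays, so that their folds are measured on both sides.

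Next to the threshold, the contigs just inside were PATC092069, with a smallest difference of 1.51 in flower, and PATC146459, with 1.51 in leaf. Just outside were PATC053153, with 1.499 in leaf, and PATC136581, with 1.49 in flower. PATC136581 differed by 3.46 in leaf and PATC053153 by 2.99 in root, so that the threshold divides contigs whose other tissues differ as much as those of contigs that were kept.

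Slides that held both genotypes of a tissue gave much the same differences, without any other slide in the comparison. On the slide with both flower samples, the median of the 76 contigs was 2.43 and 72 reached 1.5. On the 2 slides with both leaf samples the medians were 2.37 and 2.35 and the counts 74 and 71, and on the slide with both root samples the median was 2.34 and the count 73. All 76 were above 0 on each of these slides, and the lowest value was 1.17. Since the same arrays served to choose the contigs, these values are descriptions.

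The study placed a pair of probes on contigs longer than 500 bases, toward either end of the sequence, and a single probe on shorter ones. Of the 76 contigs, 48 had 2 probes (63.2%, against 53.5% of all contigs), and 26 of the 48 were read by the probe numbered 1. The probe not used for the choice gave median differences of 1.92 in flower, 1.44 in leaf and 1.37 in root, against 2.24, 2.33 and 2.35 for the chosen probe of the same contigs. It reached 1.5 in all 3 tissues in 17 of 48 contigs, against 0.145% of the 23376 contigs with 2 probes, and was above 0 in all 3 in 39 of 48, against 17.6%. It was below 0 in all 3 tissues in none. These counts come from the hybridizations that chose the contigs, and the second probe of a contig read the same RNA, so they are descriptions. Only the chosen probe had to reach 1.5, which favours a smaller difference at the other probe. By the rule the other probe was also the dimmer on amplified arrays. In some contigs, PATC115059 among them, it lay at the floor in P. aphrodite, which narrows its difference.

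**Figure D3:**
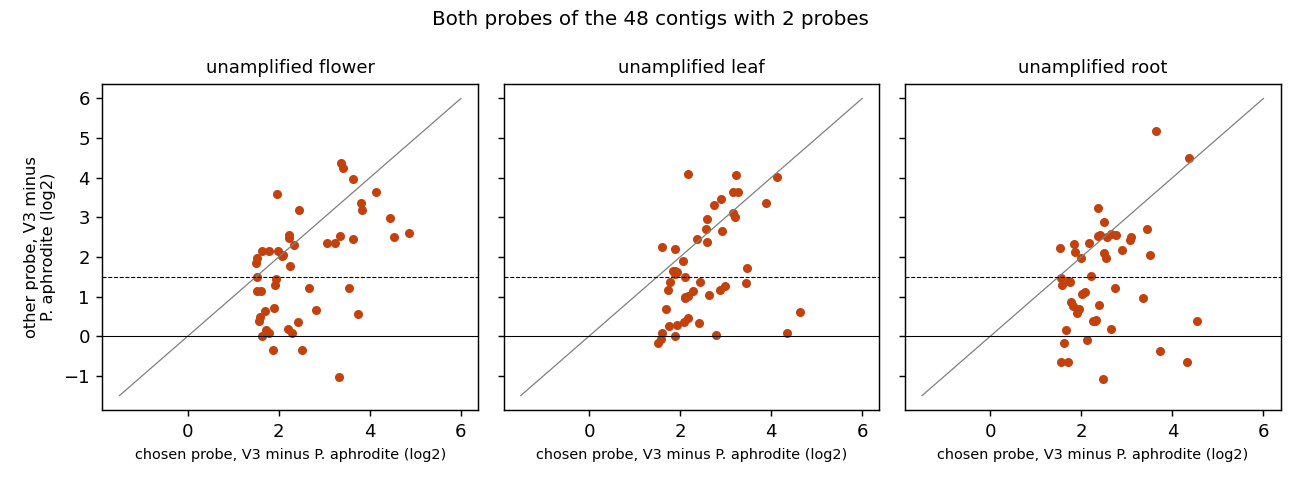
V3 minus P. aphrodite on the log2 scale for the chosen probe (horizontal axis) and the other probe (vertical axis) of the 48 contigs with 2 probes, in unamplified flower, leaf and root. Each point is a contig, the diagonal marks equal differences and the dashed line 1.5. Points at or above the dashed line number 26 in flower, 24 in leaf and 22 in root.

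The probes of a contig lay within 1 of each other, on the mean over the 3 tissues, in 26 of 48 contigs, and the other probe was over 1 lower in 21 and over 1 higher in 1. The widest gap was in PATC127959, where the chosen probe gave 3.31, 4.64 and 4.54 in flower, leaf and root and the other probe -1.03, 0.61 and 0.38. That other probe was well above background on all 6 V3 arrays, with levels between -0.46 and 0.52 in V3 tissues and between -0.62 and 0.57 in P. aphrodite tissues. In PATC157946 the chosen probe gave 3.73, 2.79 and 2.65 and the other 0.56, 0.04 and 0.17, with the other probe again bright in both plants. In PATC135997 the chosen probe gave 2.52, 4.35 and 4.33, and the other probe was not well above background on any V3 array, so that it carried no measurement. A contig's difference between the genotypes was thus carried by 1 of its 2 probes in some contigs and by both in others.

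A few of the 76 contigs ran so alike that they are not separate observations. Among the contigs well above background on at least 0.5 of the 54 arrays, 8 pairs correlated above 0.98 over all 54 arrays, which share their scaling and the contrast between genotypes. PATC141196 and PATC141945 reached 0.999 and differed by a median of 0.03. PATC149049, PATC152252, PATC153760 and PATC158319 formed a set of 5 such pairs, and PATC144883 with PATC145106 and PATC147669 with PATC149452 were the others. Whether they are fragments of 1 transcript was not tested, since no sequences were used.

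Amplified flowers gave a comparison of the genotypes whose difference the rule had not used, although the amplified arrays did decide which of 2 probes read a contig. The labels do not say whether amplified and unamplified flowers shared plants or RNA. The samples that chose the contigs may therefore be read again here. Of the 76 contigs, 67 were well above background on both arrays of V3 or of P. aphrodite flowers and were tested, and 63 were higher in V3 by at least 2-fold with an adjusted p under 0.05 (limma, Benjamini-Hochberg over 31066 contigs), whereas 13.5% of all contigs were higher and 11% lower. None of the 67 was lower by that rule. A contig could pass the filter through 1 genotype alone, and 13 of the 67 passed through V3 only, which favours a higher call. Of these 13, 12 were called higher, where 64.2% of all 823 such contigs were. Among the 53 contigs well above background on all flower arrays of both genotypes, 51 were higher and none lower, where 12.9% and 9.71% of such contigs were, and the median was 2.67 against 0.14. Among the 20 tested contigs with 1 probe, for which no probe was chosen, 18 were higher and none lower, where 17.7% and 11.7% of such contigs were. The median difference was 2.92, against 0.11 over all contigs, and the differences ranged from -0.42 to 9.48 with a median standard error of 0.19. The opposite group showed the reverse, with 72 of 84 lower in V3 and a median of -2.96. The 2 arrays of each flower sample differed less than duplicate spots on 1 array and were counted as 1 replicate. The standard errors come from conditions whose arrays differed more, among them the inflorescences labelled P. aphrodite that stood apart.

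**Figure D4:**
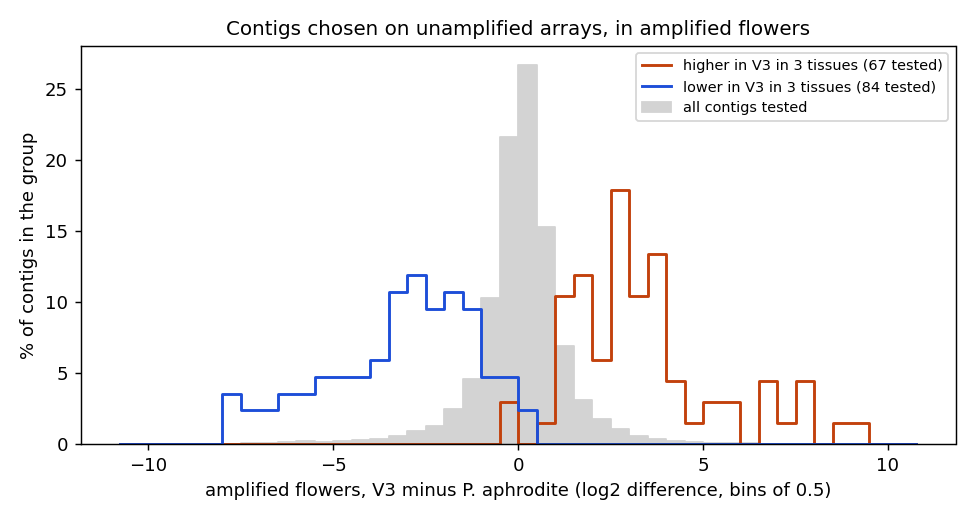
Share of contigs (vertical axis, in % of each group) by V3 minus P. aphrodite difference in amplified flowers (horizontal axis, log2, bins of 0.5). Lines show the 67 tested contigs that were higher in V3 in unamplified flower, leaf and root and the 84 that were lower, and the grey area all contigs tested. The group medians are 2.92 and -2.96, against 0.11 for all contigs.

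The largest fitted difference was again that of PATC173816, with 1.12 and 1.18 in V3 flowers against -8.36 and -8.30 in P. aphrodite flowers, where it was not well above background. It was at least 715-fold higher in V3 (adjusted p = 6.81e-07, limma). PATC033599 gave 0.46 and 0.47 in V3 flowers and was likewise at the floor in P. aphrodite flowers, which makes it at least 445-fold higher in V3 (adjusted p = 2.01e-08, limma). PATC147445 was at least 253-fold higher in V3, PATC141196 at least 212-fold, PATC141945 at least 209-fold and PATC154172 at least 156-fold, with adjusted p-values between 5.04e-08 and 1.28e-06 (limma). These 6 contigs were not well above background on either amplified P. aphrodite flower array. The folds in unamplified flowers were smaller. They were 27.9 for PATC173816 and 3.89 for PATC147445, both well above background on all 7 unamplified P. aphrodite arrays. For PATC033599, PATC141196, PATC141945 and PATC154172 they were at least 13.2, 22.1, 27.5 and 3.99. The gap between the preparations was not tested. With the mean of the 6 V3 organs in place of whole flowers, the fitted log2 difference was 1.2 for PATC173816 and 0.97 for PATC154172, against 8.65 for PATC033599, 9.05 for PATC147445, 5.03 for PATC141196 and 4.99 for PATC141945, so that the first pair of folds rests on the whole V3 flower arrays.

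At the other end, PATC012003, PATC092069, PATC149763 and PATC192497 were the 4 tested contigs that were not called. PATC012003 had -5.03 and -5.02 in amplified V3 flowers against -4.61 and -4.60 in amplified P. aphrodite flowers (difference -0.42 ± 0.17 SE, adjusted p = 0.076, limma), while unamplified flowers had given -1.36 and -1.65 in V3 against -4.35 and -4.24 in P. aphrodite. PATC092069 lay near the floor on both sides, with a difference of -0.25 ± 0.60 SE. PATC149763 differed by 0.84 ± 0.16 SE and so missed the 2-fold rule (adjusted p = 0.0028, limma), but gave 1.28 without P. aphrodite flower replicate 2. PATC192497 differed by 1.36 ± 0.50 SE (adjusted p = 0.053, limma). PATC149452 differed by 1.09 ± 0.14 SE (adjusted p = 0.00036, limma), with 0.49 and 0.48 in V3 flowers against -0.62 and -0.59 in P. aphrodite flowers.

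The probe not used for the choice could be tested in amplified flowers for 45 contigs. It was higher in V3 in 36 and lower in none, where 12% of all contigs were higher and 13.3% lower by their other probe, and its median difference was 2.62 against 0.05 over all contigs. Among the 28 tested contigs whose other probe had missed 1.5 in some unamplified tissue, 19 were higher in amplified V3 flowers. PATC127959, whose probes had differed most, gave 1.93 with the chosen probe and 2.37 with the other.

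The amplified V3 and P. aphrodite flowers were hybridized on different slides that were scanned on different days, so genotype cannot be told apart from slide and scan day there. Because whole V3 flowers stood apart from the floral organs, the comparison was also made with other V3 material. With the mean of the 6 V3 organs in place of whole flowers, 41 of 67 tested contigs were higher than in P. aphrodite flowers and 1 lower, where 24.2% and 12.5% of all contigs were, and the median was 1.42 against 0.36. With V3 flowers 1 day after pollination, 43 of 63 were higher and 3 lower, where 23.2% and 14.3% of all contigs were. In each of these comparisons a contig could again pass the filter through V3 alone, which favours a higher call. Of the 67 contigs tested in whole flowers, 25 were higher in V3 in whole flowers, buds, the mean of the organs and day 1 flowers. Of all contigs tested in whole flowers, 3.1% met all 4 conditions.

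Read array by array, 26 of 67 contigs had all 26 amplified V3 arrays above both P. aphrodite flower arrays, against 12.8% of contigs tested. All 26 V3 arrays lay above the 11 P. aphrodite arrays other than inflorescences for 11 of 67 contigs, against 1.25%. PATC033599 was the clearest of these: its lowest V3 value was -0.61 and its highest among the 11 P. aphrodite arrays -7.45. PATC036434 had -5.41 and -8.11. PATC147445, PATC155317, PATC029243, PATC029193, PATC144855, PATC103687, PATC139976, PATC072003 and PATC227941 were the others. PATC033599 varied little within V3, between -0.61 and 0.53, and its only P. aphrodite values above -7.39 were those of the inflorescence, at -2.03 and -1.73.

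Buds differed from flowers. The mean of V3 small and large buds exceeded the P. aphrodite bud in 36 of 68 tested contigs, where 23.7% of all contigs were higher, and fell below it in 10, where 11.9% were lower (limma, adjusted p under 0.05 and at least 2-fold). The median was 1.41 in these contigs and 0.25 over all. A contig could pass the filter through V3 alone, which favours a higher call. Of all 76 contigs, 56 were well above background on both P. aphrodite bud arrays and 66 on both V3 small bud arrays. The labels give a single P. aphrodite bud stage and do not say which V3 stage matches it. PATC147445 was at least 479-fold higher in V3 buds (adjusted p = 2.05e-08, limma) and PATC033599 at least 360-fold (adjusted p = 6.23e-09, limma), both not well above background in P. aphrodite buds, whereas PATC173816 was low in both, with -7.16 and -7.05 in V3 small buds, -7.44 and -7.48 in V3 large buds and -8.16 and -7.23 in P. aphrodite buds.

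The genotype difference in flowers exceeded that in buds in 33 of 68 tested contigs and fell short of it in 1, where 13.9% and 20% of all contigs did, in a test of the difference itself that was chosen after the values were seen (limma). The rule asked for a difference of at least 1.5 in flowers and for none in buds, which favours a larger difference in flowers. With the mean of the V3 organs in place of whole flowers, 22 exceeded and 15 fell short, where 18.8% and 18.3% of all contigs did, and with day 1 flowers 23 exceeded and 10 fell short, where 17.5% and 20% did. In 10 contigs the calls were opposite, higher in V3 flowers and lower in V3 buds, where 0.916% of all contigs were. With the organs, 7 of these 10 kept the opposite calls (1.5% of all contigs had them) and with day 1 flowers 5 of the 10 did (1.31%). PATC129213 turned to -1.29 with the organs and -1.58 with day 1 flowers, and PATC202943 to -0.18 and PATC224216 to -0.30 with day 1 flowers. PATC202943 was the strongest case in buds among the contigs named by rule, with -6.58 and -6.57 in V3 small buds and -7.23 and -7.29 in V3 large buds against -2.95 and -2.65 in P. aphrodite buds. PATC141196 lay at -3.35 and -3.31 in V3 small buds and at -3.34 and -3.39 in V3 large buds, against -1.68 and -1.71 in P. aphrodite buds. In the other P. aphrodite tissues PATC141196 was not well above background on any amplified array.

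**Figure D5:**
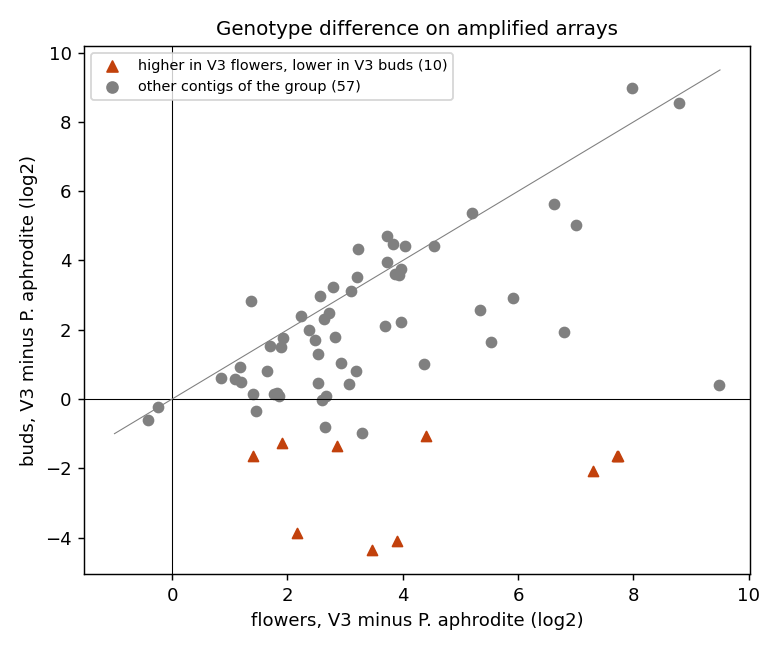
V3 minus P. aphrodite on the log2 scale in amplified flowers (horizontal axis) and buds (vertical axis). Each symbol is 1 of 67 contigs, and the diagonal marks equal differences. Triangles are the 10 contigs called higher in V3 flowers and lower in V3 buds, among them PATC141196 at 7.72 and -1.65 and PATC202943 at 3.89 and -4.11.

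Within V3, the contigs had no common floral organ. Of 67 tested, 51 differed by over 4-fold among sepal, petal, lip, pollinia, column and pedicel (adjusted p under 0.05, limma F-test), where 56.8% of all contigs did, and the median range was 3.24 against 2.32. Pollinia, the pollen masses of orchids, were the highest organ of 18 of the 51, or 35.3%, against 46.1% of all contigs called. Column was highest for 8 and pedicel for 8, or 15.7% each, against 14% and 13.1% of all contigs called. Sepal was highest for 7, petal for 6 and lip for 4, or 13.7%, 11.8% and 7.84%, against 7.79%, 10.0% and 8.99% of all.

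PATC156721 had the widest range among organs. In pollinia it gave 5.03 and 5.06, while no array of any remaining organ exceeded -2.90 and the lowest gave -5.48. PATC149452 was near the floor in pollinia, at -6.94 and -6.43, and highest in pedicel, at 2.97 and 2.94, and PATC147669 had the same order of organs. PATC130551 gave 1.55 and 1.5 in pedicel and values between -8.05 and -6.86 in the other organs. It was also bright in V3 small buds, at 2.61 and 2.59, and in flowers 15 days after pollination, at 1.58 and 1.59. Adjusted p-values of these 4 contigs lay between 8.26e-10 and 1.07e-08 (limma F-test).

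Among P. aphrodite tissues, 60 of 68 tested contigs differed by over 4-fold, where 49.1% of all contigs did, and the median range was 4.01 against 2.00. The highest tissue was the inflorescence for 28 and the young inflorescence for 15, together with bud for 11, stalk for 3, root for 2, leaf for 1 and flower for none. Of all contigs called, 21.6% were highest in inflorescence, 11% in young inflorescence, 14.5% in bud, 9.67% in stalk, 15.1% in root, 17.6% in leaf and 10.5% in flower. Without the inflorescence arrays, 45 of 63 contigs differed by over 4-fold, where 42% of all contigs did, and the median range was 3.10 against 1.73.

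PATC130551 had the widest range, from -7.04 and -7.01 in P. aphrodite flowers to 3.31 and 3.44 in young inflorescences. PATC147445 was at 1.15 and 0.71 in inflorescence and 1.2 and 0.91 in young inflorescence, and was not well above background on any other amplified P. aphrodite array. On all 7 unamplified P. aphrodite arrays it was well above background, between -1.83 and -0.44 on their own scale. PATC181362 gave 0.59 and 1.16 in inflorescence and -0.85 and -1.45 in young inflorescence, and no more than -2.94 in the other P. aphrodite tissues. On these 4 inflorescence arrays the 3 contigs lay at or above their level in whole V3 flowers.

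After pollination the contigs were lower more often than higher. The rule required V3 flowers to exceed P. aphrodite flowers, which favours contigs high in V3 flowers and so lower calls against them. Against unpollinated V3 flowers, 6 of 67 tested contigs were higher and 29 lower on day 1, where 19.6% and 13.9% of all contigs were. On day 3, 11 of 68 were higher and 31 lower, where 22.9% and 12% of all contigs were. On day 8, 7 of 68 were higher and 29 lower, where 24.9% and 10.8% were, and on day 15, 7 of 67 were higher and 35 lower, where 27.4% and 12.1% were. The medians were -0.80, -0.90, -0.79 and -1.14 on days 1, 3, 8 and 15, against 0.11, 0.21, 0.22 and 0.18 over all contigs. In total 58 contigs changed on at least 1 day, 19 of them lower on all 4 days and 2 higher on all 4, where 54.4%, 5.46% and 10.4% of all contigs tested on any day were.

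All 4 comparisons share the unpollinated V3 flower arrays, which stood above the organs. Those arrays lay on a slide and scan day that held no pollinated flowers, so pollination cannot be told apart from slide and scan day. Nor did day 1 flowers share a slide or scan day with days 3, 8 and 15. Set against day 1 instead, 11 of the 76 contigs changed on day 3, 23 on day 8 and 34 on day 15. Of all tested contigs, 11.3%, 23.1% and 33.4% did. Not all of the 76 could be tested, so these counts understate the share of tested contigs that changed. PATC173816 was lower on all 4 days. It lay at -7.53 and -8.01 on day 1, -6.47 and -6.67 on day 3, -6.68 and -6.59 on day 8 and -6.20 and -6.38 on day 15, against 1.12 and 1.18 in unpollinated flowers (day 15 difference -7.44 ± 0.41 SE, adjusted p = 9.75e-07, limma). It was no higher than -6.23 in any floral organ. PATC154172 was not well above background on any pollinated array and was at -1.05 and -1.03 in unpollinated V3 flowers, and it was well above background in no V3 organ but pollinia, at -4.63 and -4.64, and 1 of the 2 lip arrays.

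The largest rises on day 15 were in contigs low in open flowers. PATC166017 gave -2.70 and -2.75 on day 15 against floor values of -8.19 and -8.22 in unpollinated V3 flowers, which makes it at least 38.4-fold higher on day 15 (adjusted p = 1.28e-07, limma), and -2.41 and -2.38 in pollinia. PATC012003 lay at -4.90 and -4.92 on day 1, -4.38 and -4.38 on day 3, -2.99 and -2.86 on day 8 and -1.14 and -1.12 on day 15, against -5.03 and -5.02 in unpollinated flowers (day 15 difference 3.89 ± 0.17 SE, adjusted p = 2.43e-07, limma).

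Some of the 76 contigs were hardly read after amplification. Of all 76, 4 were well above background on none of the 41 amplified arrays (PATC012799, PATC017411, PATC052821 and PATC055359), which is 5.26%, against 1.54% of the 29078 contigs that were well above background on all 6 unamplified V3 arrays. A further 36 were well above background on all 41, a count for which no share over all contigs is given. The preparations have scales of their own, and their levels are set side by side here with no test. For PATC166017, unamplified V3 flowers gave 0.26 and -0.79 and unamplified P. aphrodite flowers -3.03 and -3.25, whereas in amplified flowers it was at the floor in V3, and -8.36 and -8.22 in P. aphrodite. PATC135997 reached -0.10 and -0.57 in unamplified V3 roots and was well above background on 4 of 41 amplified arrays.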

How the data were processed

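All 54 arrays were 1-colour Agilent arrays with 67046 probes. Per the file headers, the intensity of each spot was background-subtracted and detrended by Feature Extraction 10.7.1.1. The deposited table holds log2 values: setting it against the scanner intensities showed log2 of the processed intensity, floored at 20, minus the 75th percentile of the array, although the study's methods name quantile normalization. The labels distinguish amplified from unamplified samples, whereas the methods describe amplification only. The deposited log2 values were used throughout.

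The contigs and the rules for naming them were chosen with earlier results of these data known, and the values of the unamplified arrays that chose them were given no test. Contigs were named for the largest smallest difference, the highest V3 level, the most extreme amplified comparisons, the widest gap between probes and the place next to the threshold.

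Amplified arrays were fitted over all 20 conditions with limma 3.58.1 (R 4.3.3), with Benjamini-Hochberg adjustment over all contigs tested. Tested contigs were those with at least 1 of the conditions compared in which all arrays had the probe well above background. Calls needed an adjusted p under 0.05 and a 2-fold difference (over 4-fold among organs or tissues). Arrays of 14 conditions differed less than duplicate spots and were averaged as 1 replicate, which left 26 replicates and 6 residual degrees of freedom. Tested on simulated data for the flower comparison (31066 contigs), the fit called 85% of contigs changed by 2 on the log2 scale, 91% of those changed by 3, and 0.0356% of unchanged ones. The simulated noise had the spread of the conditions kept apart, with no shift between slides, scan days or genotypes. These shares therefore check the fit and give no error rate for the real flower comparison. A bound on a fold sets the brighter mean against the lowest signal well above background on each dim array. Alternatives were quantile normalization, normexp (offset 50, on the median spot signal), a floor of 5, other probes, filters and thresholds, replicate handling, slide as a block and leaving out each array. Other V3 or P. aphrodite samples in a comparison, the subsets of contigs in flowers, and the test of flowers against buds, were chosen after seeing the data.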

Additional observations from a re-analysis of the deposited data

Results flagged for a closer look

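In 10 of the 68 contigs tested the genotype difference had opposite signs in amplified flowers and buds, with both calls and the difference between them past the threshold (limma, adjusted p between 1.78e-07 and 0.00027), against 0.916% of all contigs. The fitted difference in flowers minus that in buds was 9.38 for PATC141196, 9.37 for PATC154172, 9.34 for PATC141945, 8.00 for PATC202943, 7.84 for PATC206230, 6.04 for PATC224216, 5.48 for PATC156721, 4.22 for PATC142969, 3.17 for PATC129213 and 3.05 for PATC139248. In P. aphrodite flowers PATC141196, PATC141945 and PATC154172 were not well above background, so that their values are bounds, at least 9.38, 9.34 and 9.20, and have no order. PATC206230 was well above background on 1 of the 2 P. aphrodite flower arrays and 2 of the 4 V3 bud arrays. With the mean of the V3 organs in place of whole flowers, 7 of the 10 kept opposite calls, and PATC129213 (-1.29), PATC154172 (0.97) and PATC224216 (0.85) did not. With day 1 flowers 5 of the 10 kept them, and PATC129213 gave -1.58, PATC202943 -0.18 and PATC224216 -0.30. PATC141196 and PATC141945 are 1 of the pairs that ran alike. In both comparisons the genotypes lay on different slides. The rule asked for a difference in flowers and for none in buds, which favours this direction.

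PATC012003 (-0.42) and PATC092069 (-0.25) had every amplified V3 flower array below every amplified P. aphrodite flower array, the reverse of unamplified flowers. The difference between the preparations was not tested.

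Probes for orchid viruses, which no comparison used, gave signal in some samples. The 4 Odontoglossum ringspot virus probes lay at 1.41 or higher on the unamplified V3 flower arrays, against -2.47 or lower on unamplified P. aphrodite flower arrays, and all 4 were also well above background on both amplified whole V3 flower arrays, between -5.78 and -3.83, as none was on all arrays of any other amplified V3 condition. These scales differ between the preparations. The 4 Cymbidium mosaic virus probes reached 6.21 on the amplified P. aphrodite young inflorescence arrays, where the lowest value was -1.36. The part of infection in any difference reported here was not tested.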

How the results depend on the processing

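The rule kept 76 contigs, and 16 with normexp background correction, 131 with a floor of 5, 34 by the other probe of contigs with 2 probes, 227 with a threshold of 1 and 28 with a threshold of 2. In amplified flowers 63 contigs were higher in V3, against 36 by the other probe and 41 with the mean of the 6 V3 organs in place of whole flowers, PATC192497 and PATC166017 among them, which were not among the 63. Opposite calls in flowers and buds numbered 10, and 5 with day 1 flowers. The other probe gave 32 contigs that differed among organs (51), 38 among P. aphrodite tissues (60) and 37 changed after pollination (58), and a 4-fold threshold gave 37 after pollination. The other probe exists for 48 contigs only. Leaving out 1 array at a time gave 69 to 80 contigs kept by the rule, 63 to 65 higher in flowers, 35 to 37 higher in buds, 50 to 52 among organs, 59 to 60 among P. aphrodite tissues and 58 to 59 after pollination. Of the 76 contigs themselves, 66 to 75 were kept when 1 unamplified array was left out.

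Over named contigs and settings, 277 of 301 flower differences kept direction and call, and 7 changed sign. PATC092069 gave 0.081 with the other probe, 0.57 with the organs and 1.00 with day 1 flowers, and PATC012003 0.95 with the organs. With day 1 flowers, PATC202943 gave -0.18, PATC149452 -2.11 and PATC147669 -1.11. The cause was not tested. No paired analysis was possible because the labels give no replicate numbers that pair samples; unamplified samples that share a slide were compared within it, and slide was a random block for amplified arrays. Values at the floor carry no order.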
